A study of Mus musculus with 36 samples.

Results

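The genes described here are Rlbp1, Dkk3, Car14, Glul and Slc1a3, 5 genes of the 55487 in the gene count table, taken by symbol as genes of Müller glia. All 5 passed the filter on low counts in every fit. Bulk RNA was sequenced from retina, the unmyelinated optic nerve (UON, the nerve head) and the myelinated optic nerve (MON) of C57BL/6 mice aged 2 to 4 months. The groups were bilaterally naïve mice, mice at 3 D or 2 W after crush of 1 optic nerve, and mice at 3 D, 2 W or 6 W after microbeads were injected into 1 eye to raise its pressure (glaucoma). Each group of each tissue had n = 2 libraries, 1 from the pooled RNA of 2 female mice and 1 from that of 2 male mice, so every SD below is over 2 pools that also differ in sex. The same mice gave all 3 tissues, and the naïve pools serve as controls of both injuries, so those comparisons are not independent of each other.

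Müller glia span the retina from the vitreal surface to the photoreceptors. They take up glutamate released by neurons, buffer ions and pH, and take part in a retinoid cycle that serves cones. After injury they are known to enter gliosis, with more Gfap and other stress genes. Rlbp1 encodes CRALBP, a carrier of 11-cis retinoids that is also made in the retinal pigment epithelium (RPE). Glul is glutamine synthetase, which turns glutamate into glutamine, and Slc1a3 is the glutamate transporter GLAST. Car14 is a membrane-bound carbonic anhydrase, and Dkk3 is a secreted protein of the Dickkopf family, whose other members inhibit Wnt signalling. Astrocytes of the optic nerve also use Slc1a3 and Glul, so outside the retina these symbols do not mark Müller glia.

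In GRCm38 coordinates of the authors' tables Rlbp1 (ENSMUSG00000039194) lies on the minus strand at chr7:79374870-79387048 and Dkk3 (ENSMUSG00000030772) on the same strand at chr7:112116017-112159057. Car14 (ENSMUSG00000038526) is at chr3:95897768-95904691 and Slc1a3 (ENSMUSG00000005360) at chr15:8634124-8710764, both on the minus strand. Glul (ENSMUSG00000026473) is on the plus strand at chr1:153899944-153909723. Car14 shares 521 bases with Aph1a on the opposite strand and Glul 285 bases with Teddm2. Slc1a3 holds Gm37310 on its own strand over 2968 bases and Glul shares 93 bases with Mir8114. Strand use in the counting is not stated, so reads in the stretches shared with Aph1a and Teddm2 cannot be assigned with certainty. Gm37310 and Mir8114 lie on the same strand as Slc1a3 and Glul, so strand would not separate reads there.

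RefSeq promoters (GRCm38.p6) were matched for 4 of the 5 genes, all but Dkk3. The 250 bases before the RefSeq start are shown for Rlbp1, the gene with the largest excess of retina over nerve, and for Slc1a3, the gene with the largest excess of nerve over retina. Each is written 5′ to 3′ on the gene's own strand, from chr7:79387028-79387277 and chr15:8710808-8711057, both on the minus strand. Capitals mark matches, on either strand, to the motifs named in the next paragraph.
Rlbp1: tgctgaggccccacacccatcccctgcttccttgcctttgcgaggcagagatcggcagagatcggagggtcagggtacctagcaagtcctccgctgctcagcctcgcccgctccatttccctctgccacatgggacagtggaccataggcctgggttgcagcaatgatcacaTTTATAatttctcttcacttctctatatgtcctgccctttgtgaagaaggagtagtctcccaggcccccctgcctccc
Slc1a3: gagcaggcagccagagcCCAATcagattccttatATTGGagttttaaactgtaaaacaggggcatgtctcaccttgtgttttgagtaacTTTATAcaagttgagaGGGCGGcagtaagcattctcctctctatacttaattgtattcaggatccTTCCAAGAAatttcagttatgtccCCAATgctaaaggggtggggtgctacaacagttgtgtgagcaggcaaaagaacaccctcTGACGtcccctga

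The motifs searched were TAATCC (the core read by CRX and OTX2), ACAATG (SOX), the CCAAT box, the TATA box (TATAAA), the GC box (GGGCGG), the AP-1 site (TGANTCA), the STAT site TTCNNNGAA and TGACG (CRE core). The Rlbp1 window held 1 match to TATAAA, 78 bases before the start. The Slc1a3 window held 3 matches to CCAAT and 1 each to TATAAA, to GGGCGG, to TTCNNNGAA and to TGACG. The Glul window held 2 matches to CCAAT and 1 to GGGCGG, and the Car14 window held 1 match to TAATCC, 61 bases before the start. Of all 32851 RefSeq promoters 12.4% held TATAAA, 33.8% CCAAT, 32.7% GGGCGG, 7% TTCNNNGAA, 17.8% TGACG, 6.3% TAATCC, 10.7% ACAATG and 6.7% TGANTCA. The GC content was 57.2% for Rlbp1, 44.8% for Slc1a3, 64.8% for Glul and 62% for Car14, against a median of 52.4% over all promoters. These are matches of letters and do not show binding.

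Library totals were 19.9 to 56.0 M counts in retina, 16.2 to 58.5 M in UON and 16.3 to 78.1 M in MON. The astrocyte gene Gfap, which marks the nerve samples, was at 17.3 to 49.9 CPM (counts scaled to library size) in the 12 retina libraries and at 6400 or more in the nerve. Each of 30 other genes used in retina as Müller glia markers had counts in every retina library.

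In naïve retina the 5 genes differed widely in level per length of transcript. Glul was highest at 414 ± 18.5 FPKM (SD, n = 2), followed by Rlbp1 at 218 ± 4.67, Dkk3 at 179 ± 8.63, Car14 at 79.0 ± 1.09 and Slc1a3 at 45.3 ± 0.849. No pair of neighbours in this order overlapped between its pools. Across all 12 retina libraries 2 of the 5 genes spread less than the median retina gene, Slc1a3 and Rlbp1 were close to it, and Car14 spread more. That median was not matched for level. The highest Car14 library was the male pool at 3 D of glaucoma, at 267 CPM, and the next was at 180 CPM. The highest library was over the lowest by 1.46-fold for Glul, 1.53-fold for Dkk3, 1.69-fold for Slc1a3, 1.73-fold for Rlbp1 and 2.31-fold for Car14 (CPM), against a median of 1.65-fold over 10573 retina genes with a mean of at least 10 CPM.

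**Figure D1:**
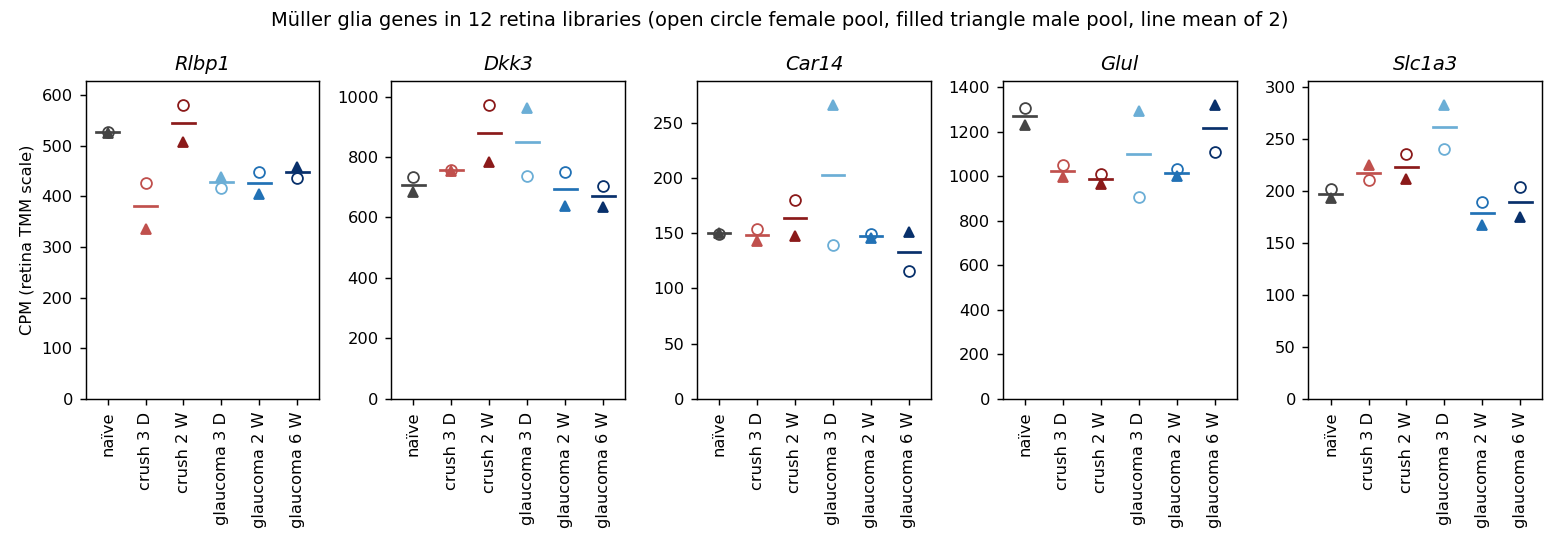
CPM of the 5 genes in the 12 retina libraries, on the TMM scale of the retina libraries, with a linear axis from 0. Open circles are female pools, filled triangles are male pools and lines are means of 2 pools. Both naïve Rlbp1 pools are above all 6 glaucoma pools, and the male pool at 3 D of glaucoma is the highest for Car14 and Slc1a3.

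Injury against naïve retina asks whether these genes move with crush or raised eye pressure. Taking as called a gene that differed by more than 1 on the log2 scale with an adjusted p below 0.05, edgeR called 0 of the 5 genes at any time of either injury. Over all genes the same limits called 0.0221% at 3 D and 0.313% at 2 W of crush, and 0.00429%, 0% and 0.00858% at 3 D, 2 W and 6 W of glaucoma, so a count of 0 among 5 genes is near that of the background. At an unadjusted p under 0.05 edgeR gave 2 of 5 at 3 D and 2 of 5 at 2 W of crush, 1 of 5 at 3 D of glaucoma and 0 of 5 at 2 W and 6 W, against 6.34%, 8.99%, 6.09%, 6.29% and 5.67% of all genes in that order. DESeq2 called 0 of the 5 in each of these comparisons and gave the same counts at an unadjusted p under 0.05. The median log2 fold change of the 5 genes was -0.015 at 3 D and 0.113 at 2 W of crush, and 0.264, -0.147 and -0.077 at 3 D, 2 W and 6 W of glaucoma, beside medians of all tested genes within 0.012 of 0. The pools did not overlap between injured and naïve retina for 4 and 3 of the 5 genes at 3 D and 2 W of crush and for 3, 3 and 1 in glaucoma, where 38.8%, 41.3%, 38.7%, 39.7% and 43.2% of all genes did not. In bulk tissue, fewer cells of a type and less RNA per cell cannot be told apart.

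Rlbp1, the retinoid carrier, had the largest difference of the 5 genes from naïve retina. Its naïve pools were at 528 CPM (female) and 526 CPM (male). At 3 D of crush they were at 426 and 337 CPM, and at 2 W of crush at 582 and 507 CPM. The pools at 3 D of crush were thus below both naïve pools, while those at 2 W lay on either side of them. The log2 fold change against naïve was -0.48 (SE 0.11, 95% interval -0.75 to -0.20) at 3 D, with adjusted p = 0.487 by edgeR's quasi-likelihood test. At 2 W it was 0.03 (SE 0.11, -0.24 to 0.30). Between the times Rlbp1 was higher at 2 W than at 3 D by 0.51 (SE 0.11, adjusted p = 0.36 by edgeR). EdgeR called 0 of 5 genes there against 0.0485% of all genes (11 genes). DESeq2 called 0 of 5 there, and 158 genes in all. At an unadjusted p under 0.05 edgeR gave 1 of 5 against 6.37%.

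In glaucoma the Rlbp1 pools were at 417 and 439 CPM at 3 D, 449 and 406 CPM at 2 W and 436 and 459 CPM at 6 W. All 6 were below both naïve pools, and the 3 times overlapped each other. The log2 fold changes were -0.30 (SE 0.14), -0.30 (SE 0.14) and -0.24 (SE 0.14), with 95% intervals that all held 0 and no adjusted p under 0.782 by edgeR. Over both injuries 9 of 10 injured pools were below both naïve pools for Rlbp1, and 8 of 10 for Glul. For Dkk3 and Slc1a3 7 of 10 were above both. All 10 were set against the same 2 naïve pools, so they are not 10 separate results. The share of all genes with such counts was not computed. At 2 W, crush pools were above glaucoma pools by 0.35 on the log2 scale (SE 0.14, adjusted p = 0.586 by edgeR, no overlap). In the direct comparisons of crush with glaucoma, edgeR called 0 of 5 genes at 3 D and at 2 W, against 0.0081% and 0.113% of all genes (2 and 28 genes). DESeq2 called 0 of 5 at both times, and 36 and 181 genes in all. By edgeR 0 and 2 of 5 had an unadjusted p under 0.05, against 4.34% and 8.12%.

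RPE is a further source of Rlbp1 in eye tissue. The retina was dissected with little pigment epithelium attached, but markers of it were present in the libraries. Rpe65, the RPE isomerase of the visual cycle, was at 7.81 to 23.8 CPM over the 12 retina libraries. The summed level of 12 RPE genes was 169 to 252 CPM in naïve retina and 127 to 195 at 3 D of crush, 109 to 161 at 2 W of crush, and 94.5 to 114, 113 to 137 and 88.9 to 188 at 3 D, 2 W and 6 W of glaucoma. Their median log2 fold change was -0.201 and -0.605 at 3 D and 2 W of crush and -0.819, -0.783 and -0.727 in glaucoma. EdgeR called 0 of the 12 at any time, with 1, 1, 4, 3 and 2 of them lower at an unadjusted p under 0.05 in that order, and DESeq2 called 1 lower at 2 W of crush and 1 lower at 3 D of glaucoma. Both Rlbp1 and the list median were below naïve at 3 D of crush and in glaucoma, and at 2 W of crush Rlbp1 had a value of 0.03 beside the list median of -0.605. The part of RPE in the Rlbp1 values was not tested. The 12 genes do not mark RPE alone. Their sum was 661 to 1140 CPM in naïve MON, where Rpe65 was at 0 to 0.923 CPM, and 149 to 155 CPM in naïve UON. Of 21 other genes of the visual cycle edgeR called 0 in any of the 5 comparisons, and DESeq2 called 1 lower at 2 W of crush and 1 lower at 3 D of glaucoma. At an unadjusted p under 0.05 edgeR gave 2 higher and 1 lower at 3 D of crush, 0 and 2 at 2 W of crush, and 1 and 5, 0 and 4, and 0 and 3 in glaucoma. For this list and the RPE genes, the shares of all genes at that limit, in either direction, were 6.34%, 8.99%, 6.09%, 6.29% and 5.67%. Rgr, an opsin of RPE and Müller glia, had the most negative value of the visual cycle list at 3 D and 2 W of both injuries. Its values were -0.79 and -1.01 in crush and -1.50 and -1.29 in glaucoma, with adjusted p above 0.05 by edgeR. DESeq2 calls in this list were only counted, so whether Rgr was among them is not given. Rbp3 and Rdh12, retinoid genes of photoreceptors and the highest of the list in naïve retina, were between -0.08 and 0.44 and between -0.38 and 0.00.

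Glul, the glutamine synthetase gene, was at 1305 and 1230 CPM in the naïve pools, female first. After 3 D of crush it was at 1049 and 995 CPM and at 2 W at 1009 and 966 CPM, so all 4 crush pools were below both naïve pools. The log2 fold change was -0.31 (SE 0.08, adjusted p = 0.548 by edgeR) at 3 D and -0.37 (SE 0.08, adjusted p = 0.179) at 2 W, and the 2 times did not differ beyond their spread (-0.06, SE 0.08). In glaucoma the pools were at 904 and 1290 CPM at 3 D, 1030 and 1002 CPM at 2 W and 1109 and 1321 CPM at 6 W. At 3 D and 6 W the female pool was below and the male pool within or above the naïve range. The log2 fold changes were -0.22 (SE 0.18), -0.32 (SE 0.18) and -0.07 (SE 0.18), and all 3 intervals held 0.

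Slc1a3, the glutamate transporter, lay on the other side of naïve after crush. The naïve pools were at 202 and 193 CPM, those at 3 D of crush at 210 and 224 CPM and those at 2 W at 235 and 212 CPM. All 4 crush pools were above both naïve pools, with log2 fold changes of only 0.14 (SE 0.11) and 0.17 (SE 0.11) and 95% intervals that held 0. At 3 D of glaucoma the pools were at 240 and 283 CPM, the highest group of the 6. That log2 fold change was 0.41 (SE 0.16, adjusted p = 0.791 by edgeR), and without the male pool it was 0.20. At 2 W of glaucoma the pools were at 189 and 168 CPM, below both naïve pools, and at 6 W at 204 and 175 CPM, on both sides of naïve. From 3 D to 6 W of glaucoma the difference was -0.47 (SE 0.16, adjusted p = 0.587 by edgeR) and -0.27 without the male pool at 3 D. EdgeR called 0 of 5 genes there against 0.0129% of all genes (3 genes). DESeq2 called 0 of 5 there, and 92 genes in all. At an unadjusted p under 0.05 edgeR gave 2 of 5 against 8%. At 2 W the crush pools were above the glaucoma pools by 0.33 (SE 0.14, adjusted p = 0.61).

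The rest of the glutamate system in retina held 24 further transporters and enzymes. EdgeR called 1 of them in the 5 comparisons, as did DESeq2 at the same time, and edgeR's was Slc17a6 (the vesicular transporter VGLUT2 of ganglion cells), which fell at 2 W of crush from 75.2 to 9.13 CPM (log2 fold change -3.04, SE 0.16, adjusted p = 0.00249). The list medians were 0.01 and -0.08 at 3 D and 2 W of crush and -0.04, -0.08 and -0.12 in glaucoma. Slc1a2 (the transporter GLT-1) had a log2 fold change of -0.45 at 3 D of crush and -0.01 at 2 W. Slc17a7 (the transporter VGLUT1 of photoreceptors and bipolar cells) and Slc38a3 (a glutamine transporter also used by Müller glia), the highest of the list in naïve retina, had values between -0.38 and 0.16 and between -0.01 and 0.19 at the 5 times.

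Car14 showed no common direction. The naïve pools were at 149 and 151 CPM, and the injured pools at 154 and 143 (3 D of crush), 180 and 148 (2 W of crush), 150 and 146 (2 W of glaucoma) and 116 and 151 CPM (6 W of glaucoma). In glaucoma at 3 D the female pool was at 139 CPM and the male pool at 267 CPM, the highest of the 12 libraries. The log2 fold change there was 0.39 (SE 0.24, 95% interval -0.16 to 0.94), and without the male pool it was -0.05. The change from 3 D to 6 W of glaucoma was -0.58 (SE 0.24, adjusted p = 0.613 by edgeR), and -0.13 without that pool. Of 23 other carbonic anhydrases and bicarbonate transporters 19 or 20 were tested, and edgeR and DESeq2 called 0 in any of the 5 comparisons, with medians between 0.012 and 0.082. At an unadjusted p under 0.05 edgeR gave 0 of them at 3 D of crush, 1 at 2 W of crush and at 3 D of glaucoma, 2 at 2 W of glaucoma and 1 at 6 W. Between 5.67% and 8.99% of all genes passed that limit in these comparisons. Car2, the cytosolic enzyme of Müller glia, was between -0.32 and 0.17, and Slc4a7, a bicarbonate transporter, between 0.08 and 0.23.

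Dkk3 was at 733 and 684 CPM in the naïve pools. It was at 756 and 755 CPM at 3 D of crush and at 974 and 782 CPM at 2 W, above both naïve pools in 4 of 4. The log2 fold change at 2 W of crush was 0.29 (SE 0.10, adjusted p = 0.458 by edgeR), and 0.10 (SE 0.10) at 3 D. In glaucoma the pools were at 736 and 961 CPM at 3 D, 750 and 636 CPM at 2 W and 706 and 636 CPM at 6 W, with log2 fold changes of 0.26, -0.03 and -0.08 (SE 0.18 each). Without the male pool at 3 D that value was -0.03. Of 8 other Dickkopf genes and their coreceptors 5 or 6 were tested by edgeR. EdgeR and DESeq2 called 0 of them, and 0 had an unadjusted p under 0.05 by edgeR. The coreceptor Lrp6, the highest of them in naïve retina at 11.2 ± 1.88 FPKM, was between -0.27 and 0.44, and the coreceptor Kremen1 between -0.20 and 0.40.

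**Figure D2:**
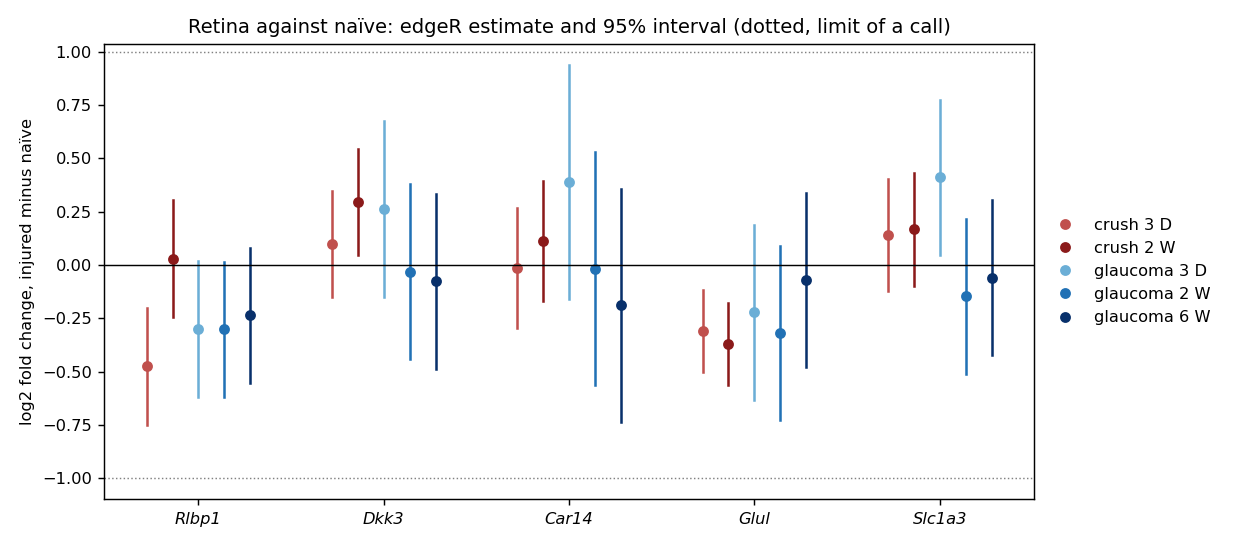
Log2 fold change of each gene against naïve retina at the 5 times after injury, on a linear axis, with points for edgeR estimates, lines for 95% intervals and dotted lines at the limit of a call. Intervals leave out 0 for Rlbp1 at 3 D of crush, for Glul at both times of crush, for Dkk3 at 2 W of crush and for Slc1a3 at 3 D of glaucoma, and each interval stays within 1 on either side.

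The gliosis genes of the same libraries had larger values. Of 30 genes known to rise in reactive Müller glia, the median log2 fold change was 1.265 and 0.83 at 3 D and 2 W of crush and 1.477, 1.107 and 0.72 at 3 D, 2 W and 6 W of glaucoma. At an unadjusted p under 0.05, 26, 20, 25, 21 and 13 of the 30 were higher than naïve in that order and 0 were lower. Of all genes 6.34%, 8.99%, 6.09%, 6.29% and 5.67% passed that limit in either direction. The list was chosen with earlier results of these data known, so these counts are a description only. EdgeR called 4 of 30, all higher and all at 2 W of crush, where 0.075% of all genes were called higher. Fgf2, a growth factor, rose from 0.321 to 8.91 CPM (log2 fold change 4.60, SE 0.47, adjusted p = 0.0221), and Serpina3n, a protease inhibitor, from 1.98 to 18.3 CPM (3.24, SE 0.38, adjusted p = 0.0349). A2m, a protease inhibitor, and Cebpd, a transcription factor of the acute phase, rose by 2.47 and 1.34. Gfap, the intermediate filament gene by which gliosis is usually read, had values of 1.02 and 1.12 after crush and 1.26, 1.31 and 0.70 in glaucoma. EdgeR called it at no time, while DESeq2 called it higher at 3 D and 2 W of crush and at 3 D and 2 W of glaucoma (adjusted p = 0.00559, 5.18e-04, 4.32e-06 and 2.28e-06) but not at 6 W (adjusted p = 0.121). Mt1 (a metallothionein) and Cryab (a small heat shock protein), the highest of the list in naïve retina, were between -0.14 and 1.20 and between -0.03 and 0.66. DESeq2 called 12 and 10 of the 30 at 3 D and 2 W of crush and 16, 12 and 7 in glaucoma, all higher. Over all genes it called 136, 346, 161, 99 and 114 in that order, in either direction. The list is shared with astrocytes and other cells, and markers of microglia lay higher too. Their sum over 14 genes was 72.5 to 81.3 CPM in naïve retina and 95.9 to 247 CPM over the injured groups. The part of those cells in the list was not tested.

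The 30 other Müller glia genes lay between the 5 genes and the gliosis list. Their medians were 0.17 and 0.18 at 3 D and 2 W of crush and 0.455, 0.03 and 0.05 in glaucoma. EdgeR called 0 of them, while DESeq2 called 2 lower at 2 W of crush, 1 higher and 1 lower at 3 D of glaucoma and 1 lower at 2 W of glaucoma. At an unadjusted p under 0.05 edgeR gave 6, 7, 10, 4 and 4 of the 30 higher and 1, 4, 1, 3 and 0 lower in that order. Between 5.67% and 8.99% of all genes passed that limit in either direction. Apoe and Clu, the highest of the 30 in naïve retina, were between -1.04 and 1.55 and between 0.09 and 0.70. The naïve level was 547 ± 419 FPKM for Apoe and 467 ± 13.1 for Clu (SD, n = 2). The Apoe values thus rest on 2 naïve pools that lay far apart. Sox9, a transcription factor of Müller glia, was between 0.43 and 0.72 at the 5 times, and Vim, an intermediate filament gene that is also in the gliosis list, between -0.05 and 0.78. Kcnj10 and Aqp4, the potassium and water channels of these cells, were between -0.11 and 0.19 and between 0.08 and 0.45. Of 24 genes of the cell cycle and of Müller cell fate 23 were tested, and edgeR called 1, Sox11, a transcription factor of developing neurons, which rose at 3 D of crush from 2.95 to 24.2 CPM (log2 fold change 3.01, SE 0.24, adjusted p = 0.0385, against 0.0176% of all genes called higher). DESeq2 called 1 higher at 3 D and 2 W of crush and at 3 D of glaucoma and 2 lower at 2 W of crush. Rax and Pax6, the highest of these in naïve retina, were between -0.33 and -0.02 and between -0.25 and 0.07.

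**Figure D3:**
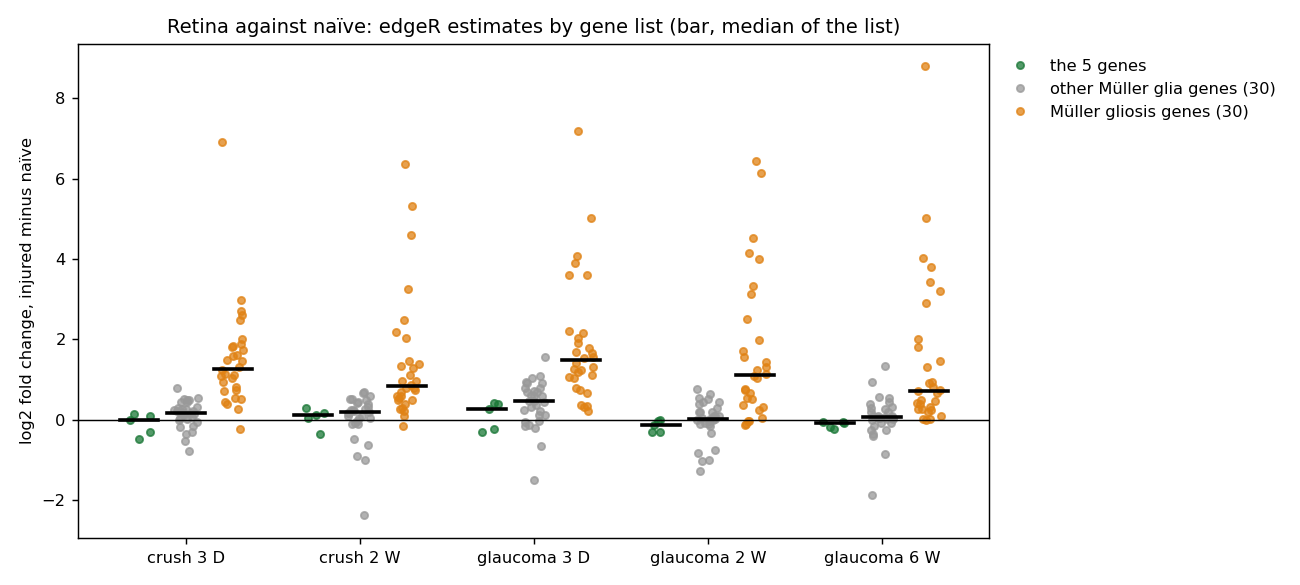
Log2 fold change against naïve retina for the 5 genes, 30 other Müller glia genes and 30 gliosis genes at the 5 times, on a linear axis, with 1 point for each gene and bars for list medians. Bars of the gliosis list are between 0.72 and 1.48, those of the 5 genes between -0.15 and 0.26.

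The naïve regional comparison asks how the genes are distributed along the visual pathway. Rlbp1 was highest in retina, Slc1a3 and Dkk3 in UON, and Glul and Car14 differed least. EdgeR called 3 of 5 genes between retina and UON (31.7% of all genes), 2 of 5 between retina and MON (27.6%) and 3 of 5 between UON and MON (9.63%). The median of all tested genes was 0.17 between retina and UON, and within 0.1 of 0 in the others.

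Rlbp1 was at 221 and 215 FPKM in the naïve retina pools, 53.8 and 45.0 in UON and 19.2 and 17.8 in MON, female first. The log2 differences and folds given here and in the next paragraph are edgeR estimates on TMM-scaled counts. They are not ratios of the FPKM printed beside them and can differ from those in size. Retina exceeded UON by 1.73 on the log2 scale (SE 0.21, adjusted p = 6.86e-04) and MON by 3.09 (SE 0.22), an 8.49-fold difference, and UON exceeded MON by 1.36 (SE 0.21, adjusted p = 0.00844). Slc1a3 ran the other way. It was at 44.7 and 45.9 FPKM in retina, 1090 and 978 in UON and 258 and 156 in MON. It was 32.7-fold higher in UON than in retina (log2 difference of retina and UON -5.03, SE 0.37, adjusted p = 7.58e-05), 6.48-fold higher in MON than in retina and 5.04-fold higher in UON than in MON. Dkk3 was at 185 and 173 FPKM in retina, 483 and 631 in UON and 105 and 67.5 in MON. It was 4.12-fold higher in UON than in retina and 6.22-fold higher in UON than in MON, while retina and MON were not told apart (0.59, SE 0.33, 95% interval -0.19 to 1.37).

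Glul was at 427 and 400 FPKM in naïve retina, 244 and 199 in UON and 380 and 385 in MON. The log2 differences were 0.53 (SE 0.23, adjusted p = 0.125) for retina and UON, -0.32 (SE 0.23, adjusted p = 0.356) for retina and MON and -0.85 (SE 0.23, adjusted p = 0.0674) for UON and MON. On FPKM retina was the higher of retina and MON, on TMM counts the lower, so no direction is given for that pair. Car14 was at 78.2 and 79.7 FPKM in retina, 44.4 and 29.8 in UON and 54.4 and 42.8 in MON. Retina exceeded UON by 0.77 (SE 0.22, adjusted p = 0.0345), which passed the test but not the limit on the fold change.

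**Figure D4:**
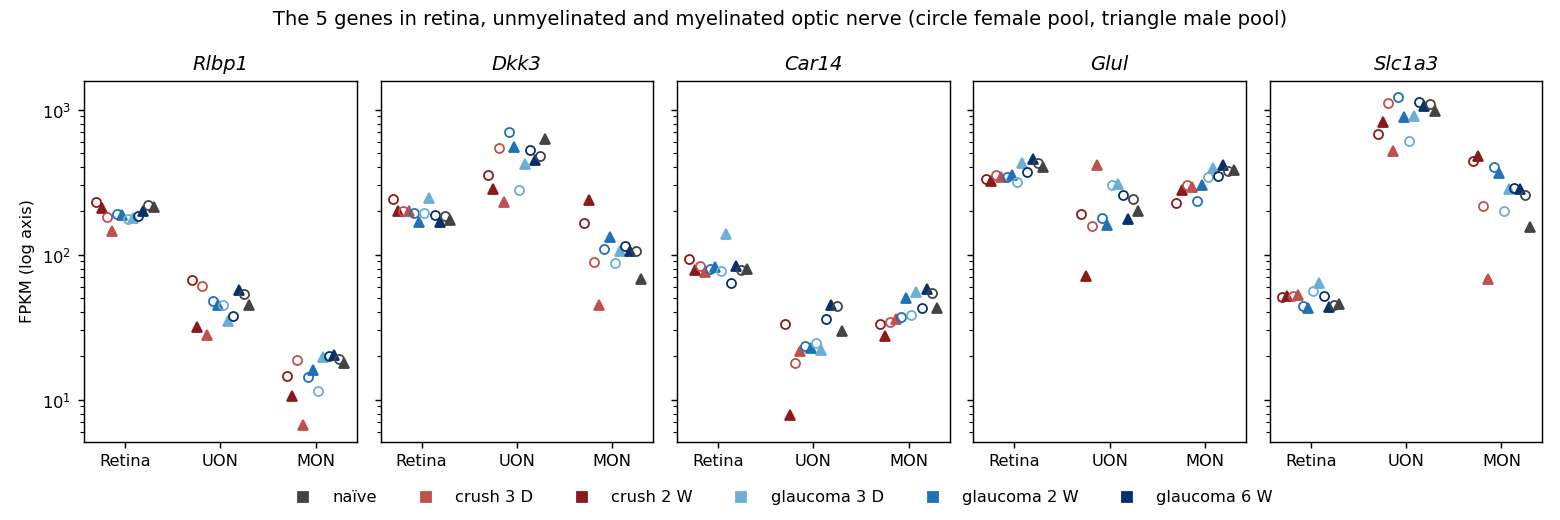
FPKM of the 5 genes in all 36 libraries on a log axis, by tissue, with circles for female pools, triangles for male pools and colours for groups. Rlbp1 is highest in all 12 retina libraries and Slc1a3 in all 12 UON libraries, while Glul overlaps between the tissues.

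The order of the tissues held in every group for these 2 genes. Over 12 libraries each, Rlbp1 was at 147 to 232 FPKM in retina, 27.9 to 67.1 in UON and 6.65 to 20.2 in MON, and Slc1a3 at 42.6 to 64.2, 522 to 1214 and 68.1 to 479 FPKM. The ranges did not overlap between any pair of tissues. In FPKM, the highest library over the lowest was larger in UON and MON than in retina for Rlbp1, Dkk3, Glul and Slc1a3, as for Slc1a3 at 7.03-fold in MON against 1.51-fold in retina. Car14 spread 5.78-fold in UON (7.79 to 45.0 FPKM), 2.16-fold in retina and 2.13-fold in MON.

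After injury edgeR called 0 of the 5 genes in UON or MON at any time. The same limits called 0.0281% of all genes in UON at 2 W of crush and 0% at its other times, 4.26% and 2.72% in MON at 3 D and 2 W of crush and 0% in MON in glaucoma. DESeq2 called 2 of the 5 in MON at 2 W of crush and 0 in the other comparisons. Over all genes DESeq2 called 2368 and 1729 in MON at 3 D and 2 W of crush, and 445, 513 and 68 at 3 D, 2 W and 6 W of glaucoma. In UON it called 210 and 519 in crush and 126, 75 and 33 in glaucoma. EdgeR called 544 in MON at 2 W of crush, so the shares above hold for edgeR only. The largest values were at 2 W of crush. In MON, Dkk3 was at 166 and 237 FPKM there against 105 and 67.5 in naïve MON (log2 fold change 1.185, SE 0.43, adjusted p = 0.234 by edgeR), and Slc1a3 at 445 and 479 FPKM against 258 and 156 (1.21, SE 0.51, adjusted p = 0.297). Both pools of each gene were above both naïve pools. DESeq2 called both genes in that comparison (1.14 with adjusted p = 0.032 and 1.17 with adjusted p = 0.0444), and edgeR called both without the female crush pool (1.87 and 1.93). Without the male crush pool the values were 0.38 and 0.30, with neither called. Markers of other cells moved in the same comparison. Of 14 microglia genes 11 were higher at an unadjusted p under 0.05 (edgeR, median 2.19, summed level 7300 to 12200 CPM against 2350 to 2560 in naïve MON), and 14 of 14 oligodendrocyte genes were lower (median -1.32, 45700 to 59200 CPM against 125000 to 170000). Of 14 astrocyte genes 1 was higher and 1 lower at that limit (edgeR, median -0.184). Their summed level was 13600 to 23300 CPM against 13800 to 19100 in naïve MON. The part of microglia, oligodendrocytes and astrocytes in the Dkk3 and Slc1a3 values was not tested. Car14 and Rlbp1 were at -0.84 (SE 0.27, adjusted p = 0.175) and -0.71 (SE 0.38) in the same comparison. In UON at 2 W of crush Car14 had a value of -1.16 (SE 0.55, adjusted p = 0.57 by edgeR), Dkk3 -0.90 (SE 0.45), Glul -0.84 (SE 0.60), Slc1a3 -0.49 (SE 0.43) and Rlbp1 -0.16 (SE 0.34), and at 3 D of crush the 5 genes were between -0.91 and 0.27. Over the 10 comparisons of UON and MON with naïve, the unadjusted p of edgeR was also under 0.05 for Dkk3 and Car14 at 3 D of glaucoma in UON (-0.75 and -0.71), Car14 at 2 W of glaucoma in UON (-0.855) and Glul at 2 W of glaucoma in MON (-0.64). That limit was passed by 3.07% and 9.27% of all genes in UON at 3 D and 2 W of crush and by 3.87%, 3.57% and 2.01% in glaucoma, and in MON by 21% and 16% and by 8.07%, 8.78% and 4.91%.

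The difference in response between retina and nerve was tested as an interaction of tissue and time, retina minus nerve, in 10 comparisons. EdgeR called 0 of the 5 genes in each of the 10, against 0.0115% and 0.0689% of all genes for UON and 0.882% and 0.622% for MON at 3 D and 2 W of crush, and 0% in glaucoma. An unadjusted p under 0.05 was given to 3 of 5 genes at 3 D of glaucoma against UON, to 1 of 5 at 2 W of crush against UON, at 2 W of crush against MON and at 2 W of glaucoma against MON, and to 0 of 5 in the others. Of all genes 3.96% and 8.42% passed that limit against UON in crush and 5.21%, 4.27% and 4.13% in glaucoma, and 14.8% and 12.2% against MON in crush and 6.20%, 7.19% and 8.46% in glaucoma. The unadjusted p of edgeR was lowest for Car14 at 2 W of crush against MON, at 1.03 (SE 0.28, adjusted p = 0.151). At 3 D of glaucoma against UON, Dkk3 (1.01), Car14 (1.16) and Slc1a3 (0.94) were those 3 genes, each with an adjusted p of 0.933 by edgeR. DESeq2 called 0 of the 5 genes in each of these 10 comparisons too. Over all genes DESeq2 called 140 and 423 against UON and 1508 and 1107 against MON at 3 D and 2 W of crush. At 3 D, 2 W and 6 W of glaucoma it called 109, 61 and 56 against UON and 116, 175 and 244 against MON. These fits had sex as a term but no term for the pool, although the same mice gave both tissues. With each pool as a block, edgeR again called 0 of the 5 in each of the 10. Of all genes it called 0% and 0.0421% against UON at 3 D and 2 W of crush. Against MON these shares were 0.618% and 0.512%, and in glaucoma they were 0%. Of the 5 genes, 3 at 3 D of glaucoma and 2 at 2 W of crush against UON had an unadjusted p under 0.05. Against MON 1 did at 2 W of crush and 1 at 2 W of glaucoma. The share of all genes at that limit in the blocked fits was not computed. At 3 D of glaucoma against UON the blocked values were 1.01 (SE 0.33) for Dkk3, 1.06 (SE 0.40) for Car14 and 0.95 (SE 0.32) for Slc1a3, each with an adjusted p of 1 by edgeR.

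Rlbp1 was read mainly as a pair of annotated coding transcripts that differ at the start. Rlbp1-201 (chr7:79374871-79386959, 9 exons, 2134 bases) begins within the gene, and Rlbp1-202 (chr7:79374870-79387048, 9 exons, 2142 bases) at its annotated end on the minus strand. The RefSeq window printed above lies just upstream of a start between these positions. In the naïve retina pools Rlbp1-201 took 53.4 and 61.3% of the Rlbp1 level per length and Rlbp1-202 38.2 and 34.4%. In naïve UON the shares were 32.5 and 37.1% against 65.0 and 59.2%. The tissues overlapped once all libraries were taken, since Rlbp1-201 ran from 29.6 to 63.6% over the 12 retina libraries and from 23.7 to 49.1% over UON. Transcript counts here are estimates by the assembler from reads that the 2 transcripts mostly share.

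**Figure D5:**
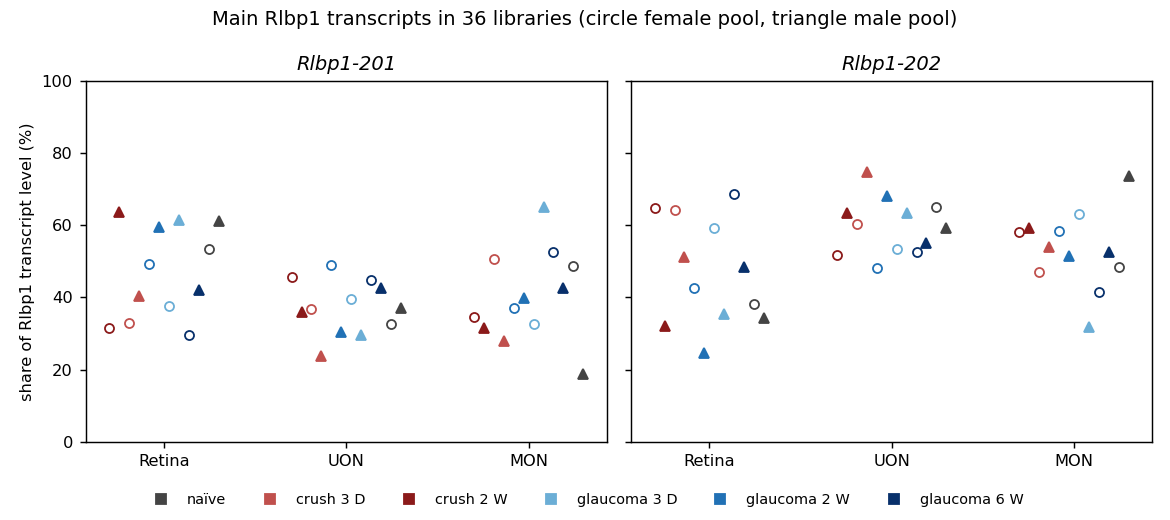
Share of the Rlbp1 transcript level, in percent per transcript length, taken by Rlbp1-201 and Rlbp1-202 in the 36 libraries, by tissue, with circles for female pools, triangles for male pools and colours for groups. The naïve retina pools are at 53.4 and 61.3% for Rlbp1-201, and the 12 retina libraries spread from 29.6 to 63.6%.

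The other genes were read mostly as 1 transcript. Dkk3 has 1 annotated transcript (Dkk3-201, 8 exons). Car14-201 took 83.9 to 92.2% in retina, 65.3 to 88.6% in UON and 61.8 to 80.5% in MON, with Car14-204, annotated as a retained intron, at 5.29 to 12.7%, 7.58 to 22.1% and 13.9 to 32.2%. The retina and MON ranges of Car14-204 did not overlap. Slc1a3-201 took 67.5 to 87.0% in retina, 89.0 to 97.9% in UON and 79.3 to 97.0% in MON. Glul-201 took 64.3 to 88.6% in retina and Glul-203, a short coding transcript of 379 bases, 7.85 to 30.3%.

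The genes did not vary as a block over the 12 retina libraries. On log2 CPM, Dkk3 and Slc1a3 had Pearson's r of 0.84 and Spearman's rank coefficient of 0.78, while Rlbp1 and Slc1a3 had r of -0.02 and Glul and Dkk3 -0.08. These are descriptions over libraries that share groups and depth. Car14 and Slc1a3 had r of 0.62, which was 0.119 without the male pool at 3 D of glaucoma. Of 10006 retina genes, the most similar to Rlbp1 by Pearson's r were Pigt (0.869), Ubxn6 (0.862) and Ndufa10 (0.844). Those of Dkk3 were Gps2 (0.932), Nudt2 (0.894) and Exosc5 (0.879), those of Glul Ckb (0.917), Hpca (0.893) and Irx6 (0.891), and those of Slc1a3 Tspan15 (0.913), Pon2 (0.912) and Plin2 (0.912). Car14 was most similar to Fxyd6 (0.864), Selenop (0.852) and Ctsd (0.835), at 0.739, 0.728 and 0.551 without that pool. By Spearman's rank coefficient at most 1 of 3 genes stayed among the top 3 of any of the 5 genes.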

How the data were processed

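The 36 libraries are bulk RNA of 3 tissues. Per the submitters' processing notes and the study's methods, the authors aligned reads to GRCm38 with HISAT2 2.2.1 and assembled them with StringTie 1.3.0. The deposited gene and transcript tables hold estimated counts made by the authors from coverage and length, without normalization, which were used as whole numbers. The deposited FPKM are the authors' StringTie values per library, of which 15 lay below 0 and were set to 0.

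Counts were fitted with edgeR 4.0.16 in R 4.3.3: TMM scaling, filterByExpr (minimum count 10, minimum total 15), group and sex as terms, the quasi-likelihood test, and Benjamini-Hochberg adjustment over all genes tested (22671 for retina crush, 23301 for retina glaucoma, 23685 for naïve). With sex as a term, the female and male pools act as blocks, as in the study. A gene was called where it differed by more than 1 on the log2 scale and its adjusted p was below 0.05. Intervals are 95%. CPM within retina use the TMM factors of the 12 retina libraries. CPM of markers and summed lists use those of all 36. Levels of different genes or tissues are given in FPKM. Log2 differences and folds between tissues are edgeR estimates on TMM-scaled counts and are not ratios of FPKM.

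The 5 genes were named in every comparison. Of each list described were named the genes called in a retina comparison with naïve (at most 4) and the 2 highest in naïve retina, and for each of the 5 genes the 3 most similar. Rgr, Rpe65, Slc1a2, Sox9, Vim, Kcnj10, Aqp4 and Gfap were chosen after their values were seen. The genes, the lists and the promoter motifs were chosen with earlier results of these data known. Likeness is Pearson's r of log2 CPM (prior count 2) over 12 libraries. Transcript shares are counts per annotated length (GENCODE M21, the authors used M25). With n = 2 pools a group, p-values rest on the spread between pools and not on that between single mice. EdgeR took the dispersion from a trend over genes and moderated each gene's spread. Its p-values and SE thus also borrow from the spread of other genes.

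Alternatives were DESeq2 1.42.0, RLE scaling, no filter, no sex term, limma 3.58.1 on log2(FPKM + 1), no limit on the fold change, all retina libraries in 1 fit, and leaving out each library. The fit was tested on simulated data. DESeq2 counts in the lists and each pool of mice as a block in the differences between retina and nerve were added after the data were seen. So were the counts of injured retina pools below or above both naïve pools, and likeness without the male retina pool at 3 D of glaucoma.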

Additional observations from a re-analysis of the deposited data

How the results depend on the processing

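The count of called genes among the 5 was equal to the reported one in 205 of 209 values under another setting and in 304 of 308 values with 1 library left out, over 32 comparisons. The exceptions from a count of 0 were 2 W of crush in MON, with 2 genes called by DESeq2 and between 0 and 2 with 1 library left out (2 without the female crush pool), and the difference of retina and UON at 2 W of crush, with between 0 and 1 (Car14 without the female UON crush pool). Between naïve retina and UON the count was between 3 and 4 with 1 library left out, and between naïve retina and MON between 2 and 3. With limma on log2(FPKM + 1) these counts were 4 and 3, and with no limit on the fold change the first was 4. The fit without sex as a block (no pairing of the pools) called 0 of 5 genes in every comparison with naïve, and 3, 2 and 3 of 5 in the naïve comparisons, so it changed no call. With each pool of mice as a block, chosen after seeing the data, 0 of 5 were called in the 10 differences between retina and nerve, while all genes called at 2 W of crush against UON went from 18 to 11 and at 3 D of crush against UON from 3 to 0.

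Signs near 0 were not stable. With limma on log2(FPKM + 1) the sign turned for Car14 at 3 D of crush (0.02), Dkk3 (0.015) and Car14 (0.034) at 2 W of glaucoma, Slc1a3 at 6 W of glaucoma (0.067) and Glul between naïve retina and MON (0.112). With 1 library left out, the values against naïve changed sign as follows, given as lowest and highest. At 3 D of crush they were -0.006 and 0.186 for Dkk3 and -0.121 and 0.071 for Car14. At 2 W of crush they were -0.098 and 0.155 for Rlbp1 and -0.002 and 0.227 for Car14. At 3 D of glaucoma they were -0.029 and 0.531 for Dkk3, -0.048 and 0.779 for Car14 and -0.47 and 0.013 for Glul, at 2 W -0.179 and 0.103 for Dkk3 and -0.276 and 0.204 for Car14, and at 6 W -0.169 and 0.005 for Dkk3, -0.391 and 0.023 for Car14, -0.232 and 0.097 for Glul and -0.177 and 0.048 for Slc1a3. The cause was not tested. Rlbp1 at 3 D of crush stayed between -0.61 and -0.355 and Glul at 2 W of crush between -0.387 and -0.355.

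The number of all genes called depended on the tool. EdgeR called 5, 71, 1, 0 and 2 genes at 3 D and 2 W of crush and 3 D, 2 W and 6 W of glaucoma in retina, and DESeq2 136, 346, 161, 99 and 114, so the count of gliosis genes called rests on the tool while that of the 5 genes was 0 by both.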

Other observations

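The share of the Rlbp1 transcripts lay apart in the pools of the 2 sexes in retina, which was noticed after the values were seen. Rlbp1-201 took a larger share in the male than in the female retina pool in 6 of 6 groups, with a median difference of 11.3 percentage points, and Rlbp1-202 a smaller share in 6 of 6. In UON the share of Rlbp1-201 was larger in the female pool in 5 of 6 groups (median -9.8 percentage points, male minus female) and in MON in 4 of 6 (-6.5). The shares of both transcripts are parts of the same total, and an exact permutation test run on the pattern is not used as support, since the pattern was chosen from these same values. At the gene level Rlbp1 was higher in the male retina pool in 2 of 6 groups.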
